A study of Arabidopsis thaliana with 75 samples.

Results

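Transcript levels of 9 genes that make or organise wall polysaccharides were examined in the Arabidopsis root epidermis, among 21440 genes measured on 75 Affymetrix ATH1 arrays. They were chosen by locus code: the cellulose synthase-like genes CSLD2 (AT5G16910), CSLD3 (AT3G03050), CSLD5 (AT1G02730) and CSLA14 (AT3G56000), the cellulose synthase genes CESA1 (AT4G32410), CESA3 (AT5G05170, named CEV1 in RefSeq) and CESA6 (AT5G64740), and the COBRA family genes COB (AT5G60920) and COBL9 (AT5G49270, named SHV2 in RefSeq). All 9 were present in the deposited table. Each of 25 groups held 3 biological replicates. Seedlings were grown for 5 days on MS medium with sucrose, the last 2 mm of the root tips were pooled, walls were digested, and cells with GFP were sorted. Every line, wild type included, carried the same WER::GFP insertion on chromosome 5, which marks differentiating epidermis and lateral root cap and is brighter in non-hair cells, so each array is a mixture of hair and non-hair cells.

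The wild type was Columbia. The lines called hairy lines below, which make too many root hairs, were wer myb23 (wer-1 myb23-1), gl3 egl3 (gl3-1 egl3-1) and ttg (ttg1-13). The line with non-hair cells in place of hair cells was cpc try (cpc-1 try-82). All of these lines were hybridised at both Michigan and Duke. The other groups were measured at Michigan: gl2 (gl2-1, which lacks a non-hair regulator), rhd6 (rhd6-1, which lacks a regulator of hair outgrowth), rhd6 seedlings moved to plain MS medium, to the auxin IAA or to the ethylene precursor ACC, and a panel of 11 single mutants, called the panel lines here, namely bhlh66 (bhlh66-1), cobl9 (cobl9-1), cow1 (cow1-3), csld3 (csld3-1), ire (ire1-2), lrx1 (lrx1-4), mrh1 (mrh1-1), mrh2 (mrh2-1), mrh3 (mrh3-3), myc1 (myc1-1) and rhd2 (rhd2-1). In the panel, myc1 and bhlh66 lack bHLH transcription factors, MYC1 having a part in cell fate, and the other 9 lack genes that the study places later. The paper also reports excess root-hair cells in gl2 and some ectopic ones in myc1, which are not counted as hairy lines here. Each line stands for 1 allele combination. Both csld3-1 and cobl9-1 carry a T-DNA in the transcribed region of the gene.

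Cellulose is spun at the plasma membrane by rosettes of CESA proteins. In primary walls, CESA1 and CESA3 are needed in every rosette, and CESA6 shares its place with close relatives. CSLD proteins resemble CESAs and lay down a related glucan during tip growth and cell division: csld3 hairs burst at their tips, CSLD2 helps to shape root hairs, and CSLD5 acts at the new wall of dividing cells. The CSLA family makes mannan backbones. COB, a GPI-anchored protein, orients cellulose microfibrils in elongating root cells, and COBL9 is its relative needed for the tip growth of root hairs.

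Values were log2 signals, so that a difference of 1 is a factor of 2, and the levels of different genes were not compared. Replicate arrays correlated at 0.898 to 0.992 at Michigan and at 0.913 to 0.997 at Duke, and the facilities were fitted apart because their distributions differed. The epidermal marker WER had group means of 10.66 to 11.67 at Michigan, and at Duke it ranged from 8.06 in gl3 egl3 to 9.83 in cpc try, with 9.08 in ttg and 9.19 in wer myb23. WER is itself mutated in wer myb23, and the sorting marker WER::GFP is built on the same gene. Its level is therefore not an independent measure of epidermal content. Of 3 stele markers and 3 markers of xylem secondary walls, the averaged group means at Michigan were 5.57 to 5.92 and 4.20 to 5.18. Members of each list disagreed: the cytokinin receptor gene WOL had group means of 9.56 to 10.50, while the other stele markers SHR and ATHB8 reached at most 4.33 and 3.54. Among the xylem markers, the secondary wall synthases CESA7 and CESA8 stayed at group means of at most 4.12 and 3.74, while CESA4 ranged from 5.83 to 8.13. The 5th percentile of all genes on a Michigan array was 2.89. Markers of the lateral root cap, which the sort also collects, averaged 8.96 in myc1 to 10.45 in rhd6. The averaged signal of 4 root hair markers (EXPA7, PRP3, RHD6 and LRX1) was lowest in cpc try, with 5.19, and highest in mrh1, with 10.84. In a mixed sample, fewer hair cells and less RNA per hair cell cannot be told apart.

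The 9 genes differed widely in how much they moved across the 21 Michigan groups. COBL9 group means spanned 4.91 log2 units, from 5.71 in cpc try to 10.62 in wer myb23, against a pooled replicate SD of 0.63. CSLA14 spanned 3.00 (SD 0.53), from 6.99 in rhd6 + ACC to 9.995 in myc1. CSLD5 spanned 1.94 (SD 0.54), from 6.72 in mrh3 to 8.66 in cpc try, and CSLD2 spanned 1.57 (SD 0.30), from 9.20 in rhd6 + MS to 10.77 in mrh1. The main cellulose synthases and COB moved least: the span was 0.94 (SD 0.25) for CESA6, 0.64 (SD 0.25) for CESA1, 0.45 (SD 0.18) for CESA3 and 0.52 (SD 0.20) for COB. CSLD3 lay between 9.99 and 11.58 on the 60 Michigan arrays outside csld3.

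**Figure D1:**
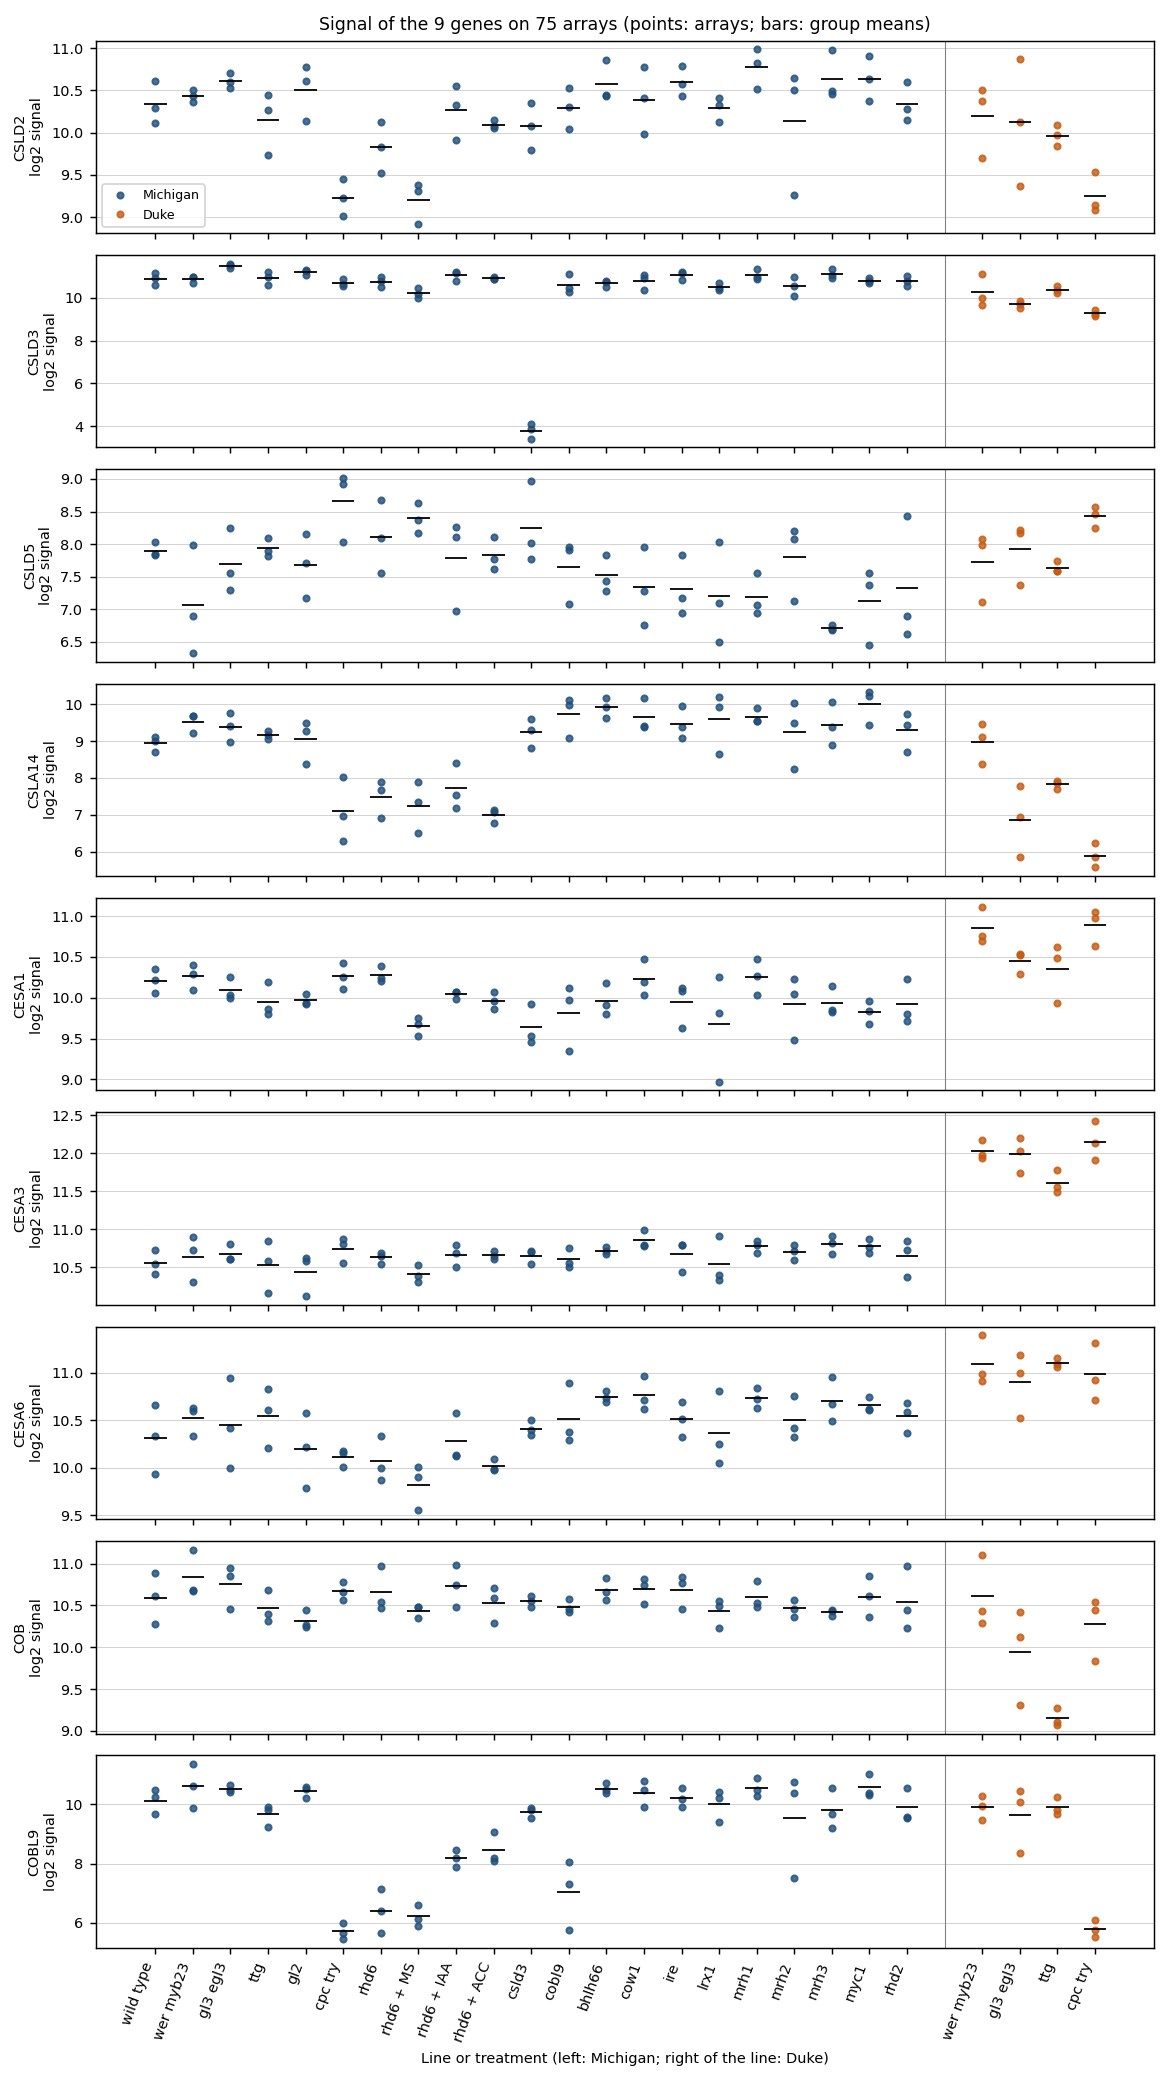
Log2 signal (y axis) of each gene in each group (x axis), with Michigan groups in blue and Duke groups in orange; points are arrays and bars are group means (n = 3). COBL9 and CSLA14 are low in cpc try and in the rhd6 groups, CSLD3 is low only in csld3, and CESA1, CESA3, CESA6 and COB keep a narrow range at Michigan.

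Ranked by group mean at Michigan, most neighbouring groups differed by less than the pooled replicate SD. For CSLD5, CESA1, CESA3, CESA6 and COB this held for all 20 neighbouring pairs, so their order has no break. CSLD2 had 1 break, of 0.59, with rhd6 above it and cpc try and rhd6 + MS below. CSLA14 had 1 break, of 1.22, below wild type, which separated cpc try and the 4 rhd6 groups from every other group. COBL9 had 3 breaks: 1.10 between mrh2 and rhd6 + ACC, 1.14 between rhd6 + IAA and cobl9, and 0.63 between cobl9 and rhd6. CSLD3 had a break of 0.29 below gl3 egl3, a further one of 0.29 above rhd6 + MS, and one of 6.41 above csld3.

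The hairy lines and cpc try were compared to ask which of these genes follow hair cell fate. COBL9 and CSLA14 were called higher in the hairy lines at both facilities, and CSLD2 at Michigan only. CESA1, CESA3, CESA6 and COB did not pass the test at either facility. At Michigan, 3 of 9 genes were called by limma at a false discovery rate (FDR) of 1%, all higher in the hairy lines, where 7.16% of all genes were called. COBL9 and CSLA14 belong to the study's core list of hair genes, which was chosen on these arrays, so their calls here are not independent evidence.

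COBL9 read 5.67, 6.01 and 5.45 on the Michigan cpc try arrays and 9.25 to 11.36 (median 10.43) on the 9 arrays of the hairy lines. The groups did not overlap, and the log2 difference was 4.56 (SE 0.41, adjusted p = 3.5e-12), a 23.5-fold higher signal. CSLA14 read 8.03, 6.97 and 6.30 in cpc try and 8.98 to 9.75 (median 9.28) in the hairy lines. It stood 2.25 log2 units higher (SE 0.35, adjusted p = 3.17e-06), or 4.77-fold, again without overlap. CSLD2 read 9.23, 9.45 and 9.01 in cpc try against 9.73 to 10.70 (median 10.44) in the hairy lines. The smaller CSLD2 difference of 1.17 (SE 0.20, adjusted p = 2.77e-05), or 2.25-fold, also came without overlap. In this contrast 8.86% of all genes did not overlap.

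At Duke, 2 of 9 genes were called, with 3.46% of all genes called and 5.14% of all genes not overlapping. COBL9 read 6.09, 5.76 and 5.54 in cpc try and 8.37 to 10.45 (median 9.94) in the hairy lines, a difference of 4.02 (SE 0.37, adjusted p = 0.000189) with no overlap. CSLA14 read 5.57, 5.87 and 6.23 in cpc try and 5.84 to 9.46 (median 7.86) in the hairy lines, a difference of 2.00 (SE 0.35, adjusted p = 0.00652). These groups overlapped through gl3 egl3, whose arrays read 7.78, 6.95 and 5.84. At Duke the replicate numbers moved together, and with the replicate block the CSLA14 call was lost (adjusted p = 0.0145), as it was with any 1 of 8 of the 12 arrays left out (adjusted p up to 0.0399). CSLD2 at Duke was 0.84 higher (SE 0.27, adjusted p = 0.0921) and overlapped. In a test of the contrast between the facilities, which called 2.82% of all genes at 5% FDR, 0 of the 9 genes passed (smallest adjusted p = 0.552, for CSLD3).

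**Figure D2:**
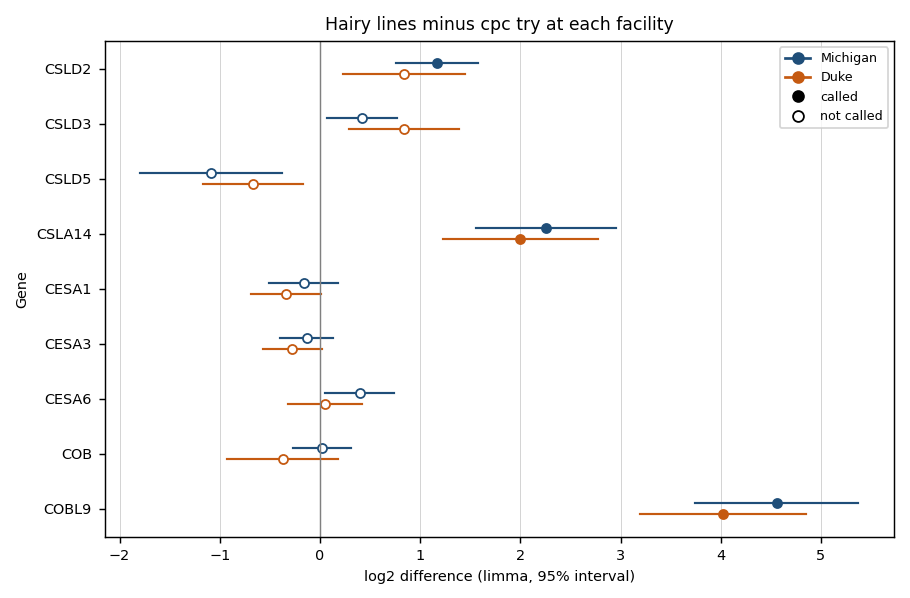
Log2 difference (x axis, 95% interval from limma) between the mean of the hairy lines and cpc try for each gene (y axis) at Michigan (blue) and Duke (orange); filled points were called at 1% FDR. COBL9 (4.56 and 4.02) and CSLA14 (2.25 and 2.00) are called at both facilities, CSLD2 at Michigan, and CSLD5 lies below 0 at both without a call.

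CSLD3 and CSLD5 were not called at either facility. CSLD3 was 10.62, 10.89 and 10.53 in the Michigan cpc try arrays and 10.60 to 11.58 (median 10.96) in the hairy lines, with a difference of 0.42 (95% interval 0.07 to 0.77, adjusted p = 0.116). At Duke it was 9.42, 9.14 and 9.23 against 9.53 to 11.12 (median 9.96), a difference of 0.84 (SE 0.25, adjusted p = 0.0668) that was not called although the arrays did not overlap. It was called without wer myb23 replicate 1, the highest array, at 0.69 (adjusted p = 0.00594). CSLD5 read 8.03, 9.01 and 8.93 in cpc try and 6.33 to 8.25 (median 7.82) in the hairy lines at Michigan, a difference of -1.09 (SE 0.35, adjusted p = 0.0322), which overlapped and missed the 1% threshold. At Duke the CSLD5 difference was -0.66 (SE 0.23, adjusted p = 0.104), with no overlap between 8.24 to 8.57 in cpc try and 7.11 to 8.21 in the hairy lines.

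For the primary wall synthases, intervals at Michigan were narrow. CESA1 differed by -0.16 (95% interval -0.51 to 0.18), CESA3 by -0.13 (-0.39 to 0.13) and CESA6 by 0.40 (0.05 to 0.74). The limma adjusted p was 0.70 for CESA1, 0.682 for CESA3 and 0.147 for CESA6. COB differed by 0.02 (-0.27 to 0.31, adjusted p = 0.973). The Duke differences were -0.34 (-0.69 to 0.02) for CESA1, -0.28 (-0.57 to 0.02) for CESA3 and 0.05 (-0.32 to 0.42) for CESA6. For COB the Duke difference was -0.37 (-0.92 to 0.18), and none of these was called. At Duke, ttg read 9.07, 9.11 and 9.27 for COB, below all arrays of the other 3 Duke lines, which lay at 9.31 and above. The same line at Michigan read 10.39, 10.31 and 10.68, among the other groups.

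Lines were then compared with wild type at 5% FDR and over 2-fold, and all these comparisons share the same 3 wild-type arrays. Of the wild-type array numbers, 1 carries no letter, 1 carries S and 1 carries x. Those of cpc try, gl3 egl3, ttg and every panel line but csld3 carry no letter. Array series and line are thus partly confounded in these comparisons. In cpc try, 3 of 9 genes fell, where 4.14% of all genes were called. Wild type read 10.48, 9.67 and 10.24 for COBL9, and cpc try was lower by 4.42 log2 units (SE 0.50, adjusted p = 5.08e-09), a 21.4-fold lower signal. For CSLA14, wild type read 9.12, 9.0 and 8.69, and cpc try was 3.58-fold lower (log2 difference -1.84, SE 0.42, adjusted p = 0.0031). CSLD2 read 10.11, 10.61 and 10.29 in wild type and was 2.16-fold lower in cpc try (log2 difference -1.11, SE 0.25, adjusted p = 0.00207). The arrays of these 3 genes did not overlap wild type. Nor did those of CSLD5, which was 0.75 higher in cpc try without a call (adjusted p = 0.496). No overlap was also found for 19.2% of all genes. Without cpc try replicate 3, CSLA14 was no longer called (-1.44, adjusted p = 0.0774), nor was it when only the groups compared entered the fit (adjusted p = 0.0614). CSLD2 dropped just under the 2-fold limit without that array (-0.999) or without wild-type replicate 2 (-0.97). All 4 hair markers fell in cpc try as well, and both non-hair markers rose, GL2 by 2.06 and TTG2 by 1.65 log2 units; the part of these markers in the result was not tested. Both non-hair markers were also called in the contrast of cpc try and the hairy lines at each facility, higher in cpc try. GL2, TTG2 and the 4 hair markers belong to the study's core list, which was chosen on that contrast and these arrays. Their calls are therefore not independent evidence of a shift in cell type.

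No member was called against wild type in wer myb23, gl3 egl3, ttg or gl2, where 0.0187%, 0.154%, 0.882% and 0.215% of all genes were. The difference nearest to a call among these 4 lines was that of CSLD3 in gl3 egl3, whose arrays of 11.58, 11.54 and 11.37 lay above the wild-type values of 10.57, 11.14 and 10.91 by 0.62 on average (SE 0.21, adjusted p = 0.47). In gl3 egl3, 12.8% of all genes did not overlap wild type. For COBL9, the group means of wer myb23, gl3 egl3 and ttg were 10.62, 10.52 and 9.67, beside 10.13 in wild type and 5.71 in cpc try.

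In rhd6, 1 of 9 genes was called, with 1.88% of all genes called and 15.7% of all genes not overlapping wild type. COBL9 read 6.41, 5.65 and 7.16 and fell by 3.72 log2 units (SE 0.50, adjusted p = 1.38e-06), or 13.2-fold, with no overlap. CSLA14 read 7.90, 6.91 and 7.68, below every wild-type array, at a difference of -1.44 (SE 0.42) with an adjusted p of 0.0624. CSLD2 was 0.52 lower (SE 0.25, adjusted p = 0.545) and CSLD3 0.13 lower (95% interval -0.55 to 0.30). All 4 hair markers fell in rhd6 too, the mutated RHD6 gene among them, and their part was not tested. CSLD3 read 10.50, 10.96 and 10.78 in rhd6 and overlapped wild type, as it did in cpc try.

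IAA and ACC restore hairs to rhd6 and were compared with rhd6 seedlings moved to plain medium, at 0.5% FDR and over 2-fold. No member was called for IAA or for ACC, where 0.135% and 0.345% of all genes were. With limma's unadjusted p under 0.05 there were 4 members for IAA and 3 for ACC, beside 26.5% and 8.25% of all genes. The arrays of 6 of the 9 genes did not overlap for each hormone, and the same held for 31.9% of all genes with IAA and 32.6% with ACC. COBL9 read 6.15, 6.62 and 5.89 on plain medium, 8.45, 8.19 and 7.90 with IAA, and 8.08, 9.06 and 8.20 with ACC. Neither treatment overlapped the plain medium: the differences were 1.96 (SE 0.50, adjusted p = 0.0307) and 2.23 (SE 0.50, adjusted p = 0.0106). Both groups also stayed below wild type, whose lowest array read 9.67. At 5% FDR and over 2-fold, a threshold added after the data were seen, COBL9 passed for both hormones and CSLD2 for IAA, with 2.2% and 0.751% of all genes called.

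CSLD2 read 8.91, 9.38 and 9.31 on plain medium, 10.55, 9.91 and 10.32 with IAA, and 10.15, 10.08 and 10.05 with ACC. The differences of 1.06 (SE 0.25, adjusted p = 0.0202) and 0.89 (SE 0.25, adjusted p = 0.0792) were again without overlap. CSLD3 read 9.99, 10.17 and 10.46 on plain medium and stood 0.84 higher with IAA (adjusted p = 0.0291) and 0.70 higher with ACC (adjusted p = 0.137), with no overlap for either. CSLA14 read 7.34, 7.88 and 6.52 on plain medium, 7.19, 7.55 and 8.40 with IAA (difference 0.47, 95% interval -0.38 to 1.32) and 6.76, 7.09 and 7.12 with ACC (-0.25, -1.11 to 0.60). In a test of ACC against IAA, which called 0.014% of all genes at 5% FDR, 0 of the 9 genes passed, and the interval of that difference for COBL9 ran from -0.73 to 1.27. The averaged hair markers were 6.22 on plain medium, 8.62 with IAA and 8.93 with ACC, and their part was not tested. Plain medium also held the lowest Michigan group means of CSLD2, CESA3 and CESA6. The array numbers of rhd6 seedlings that were not moved carry letters that those of the moved seedlings do not, so moving the seedlings and array series cannot be told apart between those groups.

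**Figure D3:**
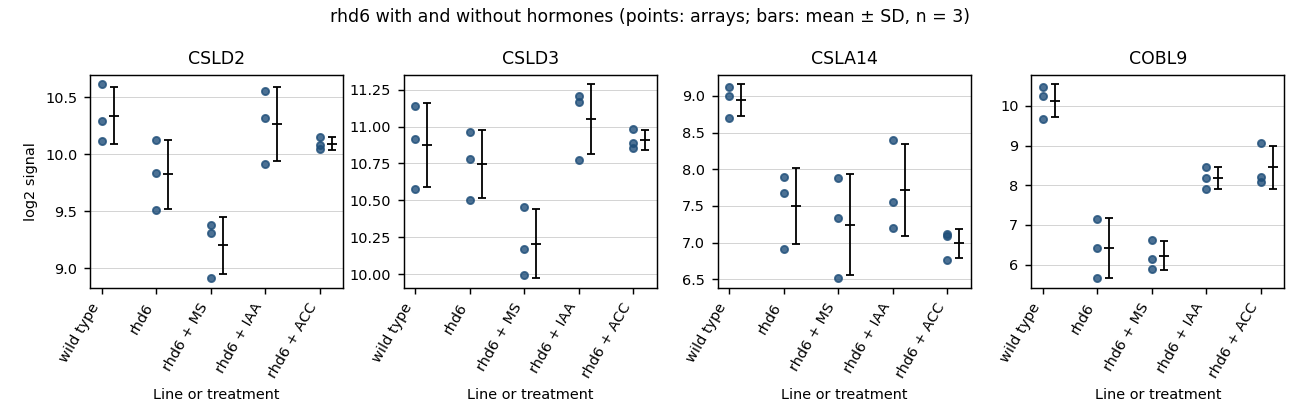
Log2 signal (y axis) of 4 genes in wild type, rhd6 and rhd6 moved to plain MS medium, IAA or ACC (x axis); points are arrays, and bars give the mean and SD (n = 3). COBL9 averages 6.22 on plain medium and 8.18 and 8.45 with the hormones, while CSLA14 stays below wild type in all 4 rhd6 groups.

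In csld3, the question was whether other CSLD, CESA or COBRA genes rise where CSLD3 is lost. CSLD3 itself read 3.42, 3.86 and 4.10, against 10.57, 11.14 and 10.91 in wild type. The difference of -7.08 (SE 0.21, adjusted p = 1.78e-29) bore out the label of the line. No other member was called, with 3.05% of all genes called, and 1 of the other 8, CESA1, had an unadjusted limma p under 0.05, as did 24.7% of all genes. CSLD2 read 10.08, 9.80 and 10.35 in csld3, and its difference of -0.26 had a 95% interval of -0.76 to 0.23. CSLD5 read 8.02, 8.96 and 7.78, overlapping wild type at 8.03, 7.83 and 7.85, with a difference of 0.35 (-0.51 to 1.22). Without csld3 replicate 2, the CSLD5 difference was -0.00229. For 5 of the 8 other members the interval lay within 2-fold in both directions; for CSLD5, CSLA14 and COBL9 it did not, so for those a 2-fold change was within the interval. In simulated data of this design, 23.5% of genes changed by 1 log2 unit were recovered, and 86% of those changed by 2. The change of 1 log2 unit equals the 2-fold limit of the call, so many such genes must fail it. The simulation changed 200 genes with independent noise, unlike the real contrast, so these shares do not measure the power for the members.

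CESA1 was the only other member whose csld3 arrays did not overlap wild type, as was the case for 26.9% of all genes. It read 9.53, 9.46 and 9.93 in csld3 and 10.06, 10.35 and 10.21 in wild type, a difference of -0.57 (95% interval -0.99 to -0.14, adjusted p = 0.0934). Against the other 10 panel lines, which do not share the wild-type arrays, the CESA1 difference was -0.31 (SE 0.16, adjusted p = 0.191) and the groups overlapped. In that comparison, where 3.35% of all genes were called, CSLD3 was again the one member called. CSLD5 came nearest among the rest: it averaged 8.25 in csld3 against 6.45 to 8.43 (median 7.23) on the 30 other arrays, 0.94 higher (SE 0.32, adjusted p = 0.0566). It passed only without csld3 replicate 3, at 1.17 (adjusted p = 0.0427). CSLD2 was 0.39 lower in this comparison (SE 0.18, adjusted p = 0.161). The mean of the 4 hair markers ranged from 9.13 to 10.12 over the csld3 arrays and from 10.58 to 10.62 in wild type, and 1 of them, the hair expansin EXPA7, was called (-2.11, SE 0.53, adjusted p = 0.0197); their part was not tested.

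Of the 3 CSLD genes outside the 9, none was called in csld3 against wild type. CSLD1 and CSLD4, which act in pollen tubes, differed by -0.26 (SE 0.33) and 0.42 (SE 0.34), and CSLD6 by 0.31 (SE 0.13, adjusted p = 0.123). CSLD1 lay 0.78 below the other panel lines (adjusted p = 0.0411), under the 2-fold limit. Within the wider lists, 5 of 63 measured genes were called in csld3 against wild type, 2 higher and 3 lower with CSLD3 among the latter, or 7.94% beside 3.05% of all genes. The median log2 difference of the 63 genes was 0.02, beside 0.03 over all genes. CSLA1, a mannan synthase relative, read 3.83 to 6.27 in csld3 and 2.93 to 3.26 in wild type (difference 1.64, adjusted p = 0.0478), and COBL6, a COBRA family member, 3.83 to 5.22 against 3.05 to 3.38 (1.33, adjusted p = 0.0206). CSLC4 and CSLC6, of the family that makes the xyloglucan backbone, fell by 1.497 and 1.35 (adjusted p = 0.0249 and 0.0282). The CSLC4 difference was -0.945 without csld3 replicate 2 and -2.55 without csld3 replicate 3, and that of CSLA1 was 0.896 without csld3 replicate 1. CSLC4 differed among the csld3 arrays, at 6.37 to 9.58, and overlapped wild type. Each of these 4 calls was lost when the fit held only the groups compared, and also without wild-type replicate 2, without wild-type replicate 3 or without csld3 replicate 1.

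**Figure D4:**
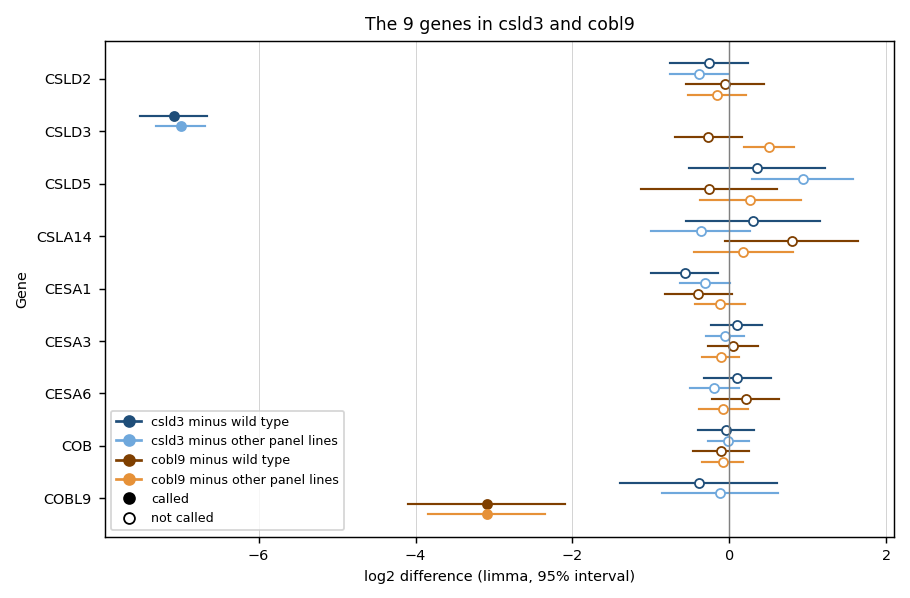
Log2 difference (x axis, 95% interval from limma) of each gene (y axis) in csld3 (blue) and cobl9 (brown and orange) from wild type and from the other 10 panel lines; filled points were called at 5% FDR and over 2-fold. The mutated gene is the filled point in each line (-7.08 and -6.99 for CSLD3, -3.09 and -3.09 for COBL9), and the open points include every other member.

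In cobl9, where 10.8% of all genes did not overlap wild type, COBL9 read 7.31, 8.05 and 5.76, below all 3 wild-type arrays. It fell by 3.09 log2 units (SE 0.50, adjusted p = 0.00265), or 8.53-fold, where 0.00933% of all genes were called. The call was lost without cobl9 replicate 3 (-2.45, adjusted p = 0.254), without wild-type replicate 3 (-3.04, adjusted p = 0.0521) and when only the groups compared entered the fit (adjusted p = 0.281). Against the other 10 panel lines, with 0.014% of all genes called, the difference was -3.09 (SE 0.37, adjusted p = 1.86e-06), and 1 array of mrh2, at 7.52, lay among the cobl9 values. How the probes lie relative to the T-DNA was not examined, so remaining signal is not a measure of intact transcript.

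No other member was called in cobl9 against wild type, and 0 of the other 8 had an unadjusted limma p under 0.05, beside 6.56% of all genes. COB, the founding member of the family, read 10.46, 10.57 and 10.43 against 10.61, 10.27 and 10.89 in wild type, a difference of -0.11 (95% interval -0.46 to 0.25). CSLA14 read 9.99, 9.09 and 10.12, 0.79 above wild type (-0.06 to 1.65, adjusted p = 0.786). The intervals of 6 of the 8 other members lay within 2-fold; those of CSLD5 and CSLA14 did not. None of the other COBRA genes was called: COBL2 was 1.13 lower (SE 0.56, adjusted p = 0.755) and COBL4 0.64 higher (SE 0.31, adjusted p = 0.755). The median difference over the 63 listed genes was 0.08, beside 0.02 over all genes. CSLD3 in cobl9 was 0.27 below wild type (SE 0.21) and 0.51 above the other panel lines (adjusted p = 0.618), a reference that includes csld3 itself.

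The remaining panel lines left the 9 genes uncalled against wild type. The shares of all genes called were 0.0187% in mrh1, 0.00466% in mrh2, 2% in mrh3, 0.00933% in rhd2, 0.00466% in cow1, 0.00466% in ire, 0.028% in lrx1, 0.00933% in myc1 and 0.00466% in bhlh66. Over the 13 lines with no member called, the 117 differences ran from -1.19 for CSLD5 in mrh3 to 1.06 for CSLA14 in myc1, and 7 had an unadjusted p under 0.05, where single lines had 3.08% to 17.8% of all genes so. CSLD5 read 6.75, 6.69 and 6.704 in mrh3, which lacks an inositol phosphatase of hair growth, below the wild-type range of 7.83 to 8.03 (adjusted p = 0.122); it was called only when the fit held just those groups (adjusted p = 0.0394). CSLA14 read 9.43, 10.23 and 10.32 in myc1 and 9.64, 9.92 and 10.18 in bhlh66, above all wild-type arrays, with adjusted p-values of 0.238 and 0.318. The lateral root cap markers averaged 8.96 in myc1 and 8.98 in bhlh66 against 10.03 in wild type, and their part was not tested. CSLA14 lay wholly above wild type in 4 of the 11 panel lines and CSLD5 wholly below in 3, while 7.65% to 29.9% of all genes lay wholly to 1 side in a given line. In mrh2, which lacks a kinesin, replicate 1 stood apart: it read 7.52 for COBL9, 9.26 for CSLD2 and 8.23 for CSLA14, where the other 2 replicates were at least 10.38, 10.50 and 9.49. The averaged hair markers of mrh2 arrays ranged from 8.12 to 10.75.

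Of 63 genes in the CESA, CSL, COBRA and accessory lists, the Michigan contrast of hairy lines and cpc try called 4 higher and 4 lower in the hairy lines, with a median of 0.01 beside -0.03 over all genes, and at Duke 2 were higher and 2 lower. These are 12.7% and 6.35% of the list, beside 7.16% and 3.46% of all genes. Beyond the 9 genes, CSLC12, a xyloglucan backbone synthase relative that also is in the study's list of hair genes, was higher by 2.78 (SE 0.39, adjusted p = 5.6e-07) at Michigan. It was not called at Duke. CSLC12 fell in cpc try (-3.07) and rhd6 (-2.49) and rose with ACC (2.40, adjusted p = 0.0031). The ACC call was lost with any 1 of its 6 arrays left out, and CSLC12 was not called with IAA. COBL7 (-0.77) and COBL1 (-1.26), both COBRA family genes, the membrane endoglucanase KOR1 (-0.52) and the receptor kinase FEI2 (-1.33) were lower in the hairy lines at Michigan, and all 4 calls were lost under at least 1 left-out array. None of these 4 genes was called at Duke. KOR1 lies outside the rule for naming genes and was added after its values were seen. At Duke, CESA5, a relative of CESA6, was lower by 0.76 (SE 0.12, adjusted p = 0.00409), a call lost with any 1 of 4 of the 12 arrays left out. No CESA gene was called in the Michigan contrast. CSLB5 was lower in the hairy lines at Duke (-3.48, adjusted p = 0.00892), in ttg against wild type (-2.36, adjusted p = 0.0347) and in gl2 against wild type (-3.44, adjusted p = 0.00125). Of these, the gl2 call held under each of the settings and left-out arrays tried, and the other CSLB5 calls did not. CSLB5 was not called in the Michigan contrast of hairy lines and cpc try. COBL2 was higher in mrh3 than in wild type (1.99, adjusted p = 0.0415), and 1 of 6 left-out arrays kept that call.

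The genes most alike in pattern, of which the first 1 or 2 are given and for CSLD5 the first 5, were found by the Pearson correlation of group means over the Michigan groups, leaving out the group that lacks the member itself. These correlations carry no test. They describe groups that share a sorting marker but differ in their averaged hair markers, from 5.19 in cpc try to 10.84 in mrh1. The part of that difference in the correlations was not tested. COBL9 was most like GXM2 and AT4G26770 (both 0.99, 20 groups), and CSLA14 most like AT4G27480 (0.974, 21 groups). CSLD2 was closest to AT1G19230 (0.973), and CSLD3 to CP1 (0.893, 20 groups). For CSLD5 the closest were the B-type cyclin CYCB2;2 (0.948), the microtubule plus-end protein EB1C (0.948) and the Aurora kinase AUR2 (0.946), followed by AT1G23790 (0.942) and the receptor kinase PSKR2 (0.938). CESA1 was most like POM1 (0.877), a chitinase-like protein of cellulose assembly, CESA3 most like GulLO5 (0.858), CESA6 most like AT5G03460 (0.957), and COB most like AT1G67890 (0.773). Among the 9 genes themselves, COBL9 correlated at 0.905 with both CSLD2 and CSLA14, CSLA14 at 0.876 with CESA6, and CSLD5 at -0.826 with CSLD2, whereas CSLD3 and CSLD2 reached 0.613.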

How the data were processed

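The deposited table, credited to RMA in the submitters' processing notes, held log2 expression values that the authors had made by RMA with quantile normalization and custom probe sets of 1 per locus. Quantile normalization hides shifts shared by all genes, and RMA compresses low signals. The software version and genome build were not given in the sources used here. The 64 control rows were left out; 21222 of 21440 loci matched RefSeq names. The methods' SAM test was replaced by limma 3.58.1 in R 4.3.3: lmFit and eBayes on 1 mean per group, over all 63 Michigan or all 12 Duke arrays, with Benjamini-Hochberg adjustment over all genes. Hairy lines against cpc try were called at 1% FDR, lines against wild type or other panel lines at 5% FDR and over 2-fold, and hormones at 0.5% FDR and over 2-fold. Every adjusted p in the text is from limma. Arrays give no depth, and 3 per group limits the precision.

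Replicate numbers were shared by all groups. Deviations of same-numbered arrays correlated over 0.1 for each number in 4 of 23 comparisons (Duke hairy lines, rhd6, cow1 and lrx1 against wild type) and ranged from -0.511 to 0.55. The code was tested on simulated data. Alternatives were the replicate block, only the compared groups, dropping the dimmest 25% of genes, median shift, repeated quantile normalization, the letter before Michigan array numbers as a factor, other fold rules, and each array left out. The text names all 9 genes, the listed relatives that were called (up to 3 a direction in each comparison), and the genes most alike. Members and lists were chosen with earlier results of these data known.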

Additional observations from a re-analysis of the deposited data

How the results depend on the processing

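Of 24 results for single members, 17 kept their call under every setting other than left-out arrays and 16 under every left-out array. These 24 are the results called under at least 1 setting or left-out array, with CSLD2, CSLD5 and CESA1 in csld3 added. The counts are therefore not rates of stability over all member results. With the replicate block, the count called in the Duke contrast of hairy lines and cpc try moved from 2 to 1, and no other count of members changed. With only the compared groups in the fit, cobl9 against wild type moved from 1 to 0, mrh3 from 0 to 1 and cpc try from 3 to 2. Without myc1 and bhlh66 in the reference, a setting added after the data were seen, csld3 and cobl9 against the other panel lines each kept a count of 1. At 5% FDR, the hormone counts moved from 0 to 2 for IAA and from 0 to 1 for ACC. With arrays left out, counts ranged from 1 to 3 in the Duke contrast and in cpc try against wild type, from 0 to 1 in cobl9 against wild type and for IAA, and from 1 to 2 in csld3 against the other panel lines. Without csld3 replicate 2, the CSLD5 difference from wild type turned from 0.35 to -0.002288, and over all left-out arrays it reached 0.5893. The cause of these changes was not tested. Counts over all genes moved more. With only the compared groups in the fit, they went from 654 to 50 in csld3, 428 to 148 in mrh3, 189 to 332 in ttg, 33 to 0 in gl3 egl3, 6 to 1 in lrx1, 4 to 0 in wer myb23, 4 to 1 in mrh1, 2 to 1002 in myc1, 2 to 0 in cobl9, 2 to 1 in rhd2 and 1 to 0 in bhlh66 against wild type, from 719 to 402 in csld3 and 3 to 1 in cobl9 against the other panel lines, from 29 to 0 for IAA and from 74 to 136 for ACC. With the array number letter as a factor, they went from 654 to 388 in csld3, 428 to 160 in mrh3, 33 to 13 in gl3 egl3, 6 to 3 in lrx1, 4 to 1 in mrh1 and 2 to 0 in rhd2. Without the fold rule, csld3 against the other panel lines went from 719 to 1734. At 5% FDR and over 2-fold, a setting added after the data were seen, IAA went from 29 to 471 and ACC from 74 to 161. Quantile normalization repeated moved cobl9 from 2 to 1 and rhd2 from 2 to 0, and a median shift moved rhd2 from 2 to 1. Levels near the floor of the arrays, such as CSLA1 and COBL6, are limited in what they can resolve.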
